A study of Mus musculus with 16 samples.

Results

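The comparison described here asks whether deleting the chromatin remodeller Brg1 changed a gene's expression by a different amount in the birthplace of adult-born olfactory bulb neurons than in their destination. For each gene the knockout effect, conditional knockout (cKO) minus control, was taken in each tissue, the subependymal zone (SEZ) and the olfactory bulb (OB), and the OB effect was subtracted from the SEZ effect. All 19938 genes that had a probe set with 1 gene symbol were compared, out of 35556 probe sets on the array. A positive difference means that the OB effect was the lower of the pair, and a negative difference means that the SEZ effect was the lower.

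Expression was measured on 16 one-colour Affymetrix arrays of total RNA from mice aged 2.5 months, 3 cKO and 5 control samples in each tissue. All mice had a mixed background of C57BL/6 and CD1, and all carried GlastCreERT2, a tamoxifen-dependent recombinase placed under Glast, the glutamate transporter of astrocytes and adult neural stem cells whose gene is Slc1a3. The cKO mice were Brg1fl/fl, and the controls were Brg1fl/+ apart from SEZ control replicate 5, whose label reads Brg1+/+. The labels give no treatment, leave sex undetermined and call the samples biological replicates. When recombination took place is not given in the sources used. The driver acts in cells that use the Glast promoter, while the RNA came from tissue that holds many other cells as well. Fewer cells of a type and less RNA per cell therefore cannot be told apart in any value below. Whether the SEZ and OB arrays of 1 number came from the same mouse is not stated, and the fit treats them as separate.

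Brg1 is the product of Smarca4 and the motor subunit of SWI/SNF complexes. SWI/SNF uses the energy of ATP to move or evict nucleosomes. In the SEZ, stem cells that resemble astrocytes produce dividing progenitors, and these produce neuroblasts. The neuroblasts migrate in chains to the OB and mature there into granule and periglomerular interneurons. Dividing cells are therefore a feature of the SEZ, while neuroblasts and young interneurons are found in both tissues.

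Values are log2 expression. Samples are listed by replicate number throughout. Array medians lay between 7.45 and 7.65. The tissues matched their labels in list means: ependymal genes lay at 7.61 to 7.84 in SEZ controls and 6.85 to 6.99 in OB controls, and mitral and tufted cell genes at 8.51 to 8.82 and 9.75 to 10.02. SEZ control replicates 2 and 4 stood apart in the vesicular glutamate transporter Slc17a7, at 8.74, 10.58, 8.44, 11.06 and 8.98 over the 5 SEZ controls. Slc1a3 itself was low in replicate 3 of the cKO in both tissues, at 11.32, 11.16 and 8.16 in SEZ cKO and 11.74, 11.66 and 8.85 in OB cKO samples. Xist, which marks female samples, lay above the mean of 3 Y-linked genes in 2 of 3 SEZ cKO, 1 of 3 OB cKO and 2 of 5 control samples in each tissue. Same-numbered SEZ and OB samples were alike in this in 7 of 8 pairs. The exception was cKO replicate 1, at 12.40 in SEZ and 6.08 in OB.

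Smarca4 was measured at 10.73, 10.62 and 10.77 in SEZ cKO and 10.71, 10.66, 10.78, 10.71 and 10.70 in SEZ control samples. In OB it stood at 10.997, 10.97 and 11.09 in cKO and 11.01, 11.01, 10.95, 11.03 and 11.06 in control samples. The groups overlapped in both tissues, and the difference between tissue effects was -0.01 (95% interval -0.19 to 0.17). The probe set gives 1 value for the gene and does not separate the floxed exons, so it is no check of the deletion.

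Promoter sequence is shown for 4 of the genes described below. No promoter entry was available for Ccna2, which had the smallest p among genes with a negative difference, nor for Cd24a and Nrep. Islr2 was the 1 gene whose tissue effects differed past the threshold, and Prokr2 had the smallest p after it among genes lower in OB. Sgo2a and Mki67 are division genes with the opposite difference. Each stretch is the 250 bases before the most upstream start in the RefSeq table of GRCm38.p6, written 5′ to 3′ on the gene's own strand. The windows are chr9:58204320-58204569 on the minus strand for Islr2, chr2:132385448-132385697 on the minus strand for Prokr2, chr1:57985090-57985339 on the plus strand for Sgo2a and chr7:135716380-135716629 on the minus strand for Mki67. Capitals mark matches, on either strand, to the CCAAT box (CCAAT) or to the cell cycle homology element CHR (TTTGAA).
Islr2: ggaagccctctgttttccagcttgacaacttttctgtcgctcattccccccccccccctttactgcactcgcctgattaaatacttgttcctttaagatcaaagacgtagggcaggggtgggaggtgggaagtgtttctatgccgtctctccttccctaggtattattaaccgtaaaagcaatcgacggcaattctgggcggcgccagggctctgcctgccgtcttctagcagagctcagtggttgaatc
Prokr2: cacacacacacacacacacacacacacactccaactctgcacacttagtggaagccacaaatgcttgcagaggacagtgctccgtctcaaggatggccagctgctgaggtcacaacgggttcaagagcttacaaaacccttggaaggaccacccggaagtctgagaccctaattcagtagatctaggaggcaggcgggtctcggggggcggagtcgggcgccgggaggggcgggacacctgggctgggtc
Sgo2a: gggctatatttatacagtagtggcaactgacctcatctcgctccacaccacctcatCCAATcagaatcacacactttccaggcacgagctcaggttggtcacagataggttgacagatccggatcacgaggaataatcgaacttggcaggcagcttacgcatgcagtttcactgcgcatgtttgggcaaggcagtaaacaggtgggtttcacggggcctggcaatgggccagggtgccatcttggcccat
Mki67: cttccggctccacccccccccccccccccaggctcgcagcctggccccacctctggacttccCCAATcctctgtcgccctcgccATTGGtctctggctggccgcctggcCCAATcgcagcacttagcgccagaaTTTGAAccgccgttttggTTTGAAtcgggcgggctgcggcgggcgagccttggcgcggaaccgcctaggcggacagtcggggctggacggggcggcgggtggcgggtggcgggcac

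The Islr2 and Prokr2 windows held no match to those letters, nor to SOX (ACAAAG or ACAATG), the POU octamer (ATGCAAAT), the nuclear factor I palindrome or E2F (TTTCCCGC, TTTGGCGC, TTTCGCGC or TTTGCCGC). No searched motif lies whole inside another. The Sgo2a window held 1 CCAAT box, and the Mki67 window held 3 CCAAT boxes and 2 CHR elements. Among all 32851 windows of this length, 33.8% held a CCAAT box, 16% a CHR and 1.86% an E2F match. Among the 19177 windows of genes tested the shares were 34.5%, 13.4% and 2.46%. Of 33 windows of 30 cell cycle genes described below, 26 held a CCAAT box (78.8%) and 8 a CHR (24.2%). An E2F match was held by 6 of these windows (18.2%) and a SOX match by 8 (24.2%). Of 29 windows of 19 neuroblast genes, out of 31 measured, 15 held a CCAAT box (51.7%) and 5 a SOX match (17.2%, against 25.2% of all windows and 21.5% of the windows of genes tested). These are matches of letters and not binding sites.

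Across all genes, the difference between tissue effects passed an adjusted p of 0.05 for 1 gene, Islr2 (0.00502% of 19938, limma with Benjamini-Hochberg adjustment over all genes). It lay on the positive side. At an unadjusted p under 0.05 there were 296 genes (1.48%), of which 194 were positive (0.973%) and 102 negative (0.512%). Of the 194 positive genes, 189 had an OB estimate below 0, and of the 102 negative genes, 101 had a SEZ estimate below 0. The estimates in the SEZ and the OB had opposite signs in 254 of the 296 (85.8%), against 44.1% of all genes, a contrast that the choice of genes by their difference partly sets. The median half-width of the 95% interval was 0.30 for the difference and 0.21 for an effect within a tissue. An absolute difference of at least 1 was estimated for 8 genes and of at least 0.5 for 79. Of the 8, Islr2, Prokr2 and Cd24a are described below. Another 4 were sex-linked, Xist (2.12), Eif2s3y (-1.71), Uty (-1.48) and Kdm5d (-1.24), and the last was Slc17a7 (-1.47), in which SEZ control replicates 2 and 4 stood apart.

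**Figure D1:**
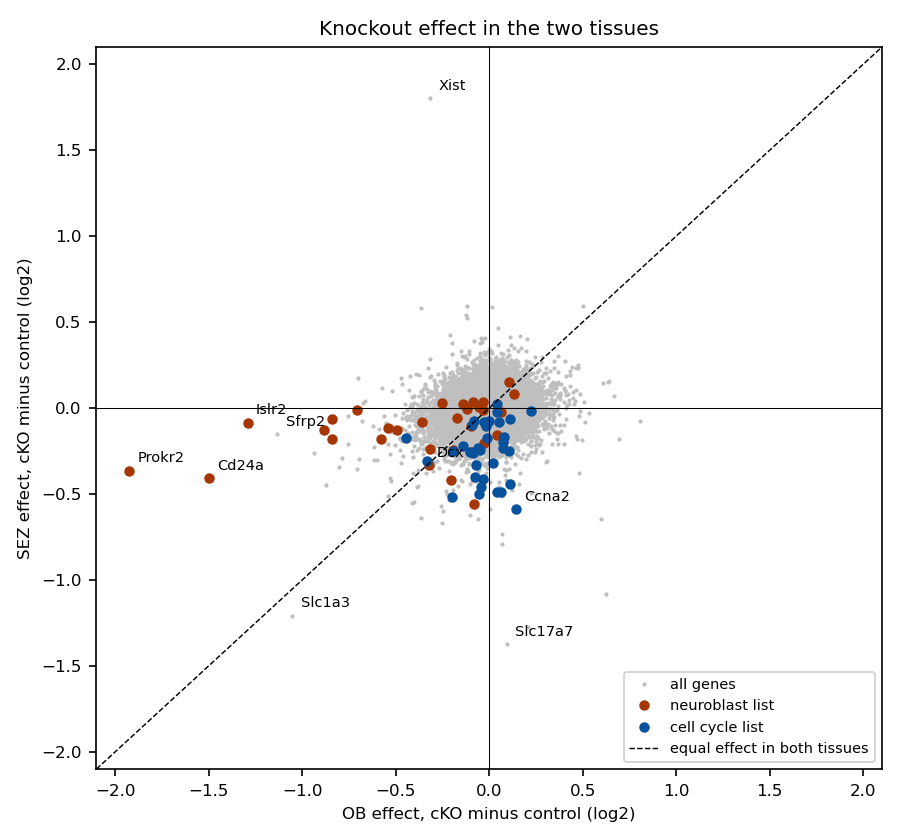
Knockout effect in the SEZ (vertical axis, log2) against the knockout effect in the OB (horizontal axis, log2) for 19938 genes in grey, with the 31 measured neuroblast genes in brown and the 35 measured cell cycle genes in blue. The dashed line marks equal effects. Islr2, Prokr2 and Cd24a lie far to the left at SEZ effects between -0.41 and -0.08, and most cell cycle genes lie below 0 on the vertical axis and near 0 on the horizontal one.

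Islr2 fell in the OB of cKO mice and was near its control level in the SEZ. It encodes a transmembrane protein with leucine-rich repeats and an immunoglobulin domain, known for roles in axon growth and guidance. In OB it was measured at 8.90, 8.77 and 8.63 in cKO and 10.13, 10.06, 9.72, 10.06 and 10.32 in control samples. In SEZ the values were 10.29, 10.06 and 10.19 in cKO and 10.31, 10.28, 10.38, 10.21 and 10.15 in control samples. Every OB cKO sample lay below every OB control, while the SEZ groups overlapped. The OB means were 8.77 ± 0.14 (SD, n = 3) for cKO and 10.06 ± 0.22 (n = 5) for controls. The SEZ means were 10.18 ± 0.12 for cKO and 10.27 ± 0.09 for controls. The effect was -1.29 in OB and -0.08 in SEZ, and the difference was 1.21 (SE 0.15, 95% interval 0.88 to 1.53, adjusted p = 0.0117) in limma. Its adjusted p missed 0.05 in 14 of 38 alternatives, among them when cKO sample 2 (0.0585) or cKO sample 3 (0.0819) of OB was left out, when cKO sample 1 (0.0846) or 3 (0.0658) of SEZ was, or with SEZ control replicates 2 and 4 left out together (0.117). Without cKO replicate 3 in both tissues, where Slc1a3 was low, the adjusted p was 0.357. With genotype and replicate number as a fixed block it was 0.126. The difference itself stayed between 1.11 and 1.32 over these 38.

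Prokr2 showed the largest estimated difference among the neuroblast genes. It encodes a receptor for prokineticins, the secreted proteins whose signal is needed for neuroblasts to reach and settle in the OB. Its OB values were 9.35, 9.69 and 9.02 in cKO and 11.36, 10.97, 11.16, 11.34 and 11.55 in control samples. In SEZ, where the gene lay lower, it was at 8.27, 8.54 and 8.07 in cKO and 8.88, 8.40, 9.28, 8.25 and 8.47 in control samples. The OB groups were separated by more than a full log2 unit, and the SEZ groups overlapped. Prokr2 fell by 1.92 in OB on the log2 scale (adjusted p = 6.3e-04), and its SEZ estimate was -0.36. The difference, 1.56 (SE 0.29, 95% interval 0.94 to 2.18, adjusted p = 0.46), did not pass over all genes. It passed without SEZ control replicate 3 (1.72, adjusted p = 0.0322) and with array weights (1.69, adjusted p = 0.0434). For the other measured members of the prokineticin system the differences were -0.24 for the ligand Prok2, 0.01 for Prok1 and -0.06 for the second receptor Prokr1, with intervals that included 0.

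Cd24a and St8sia2 act at the neuroblast surface as well. Cd24a encodes a small, heavily glycosylated surface protein, and St8sia2 an enzyme that builds polysialic acid on the adhesion molecule NCAM. Cd24a was at 9.06, 8.57 and 8.44 in OB cKO and 10.23, 9.87, 10.60, 9.86 and 10.38 in OB control samples. Its SEZ values were 9.19, 9.15 and 9.30 in cKO and 9.73, 9.17, 10.14, 9.58 and 9.47 in controls. The OB groups were apart, and in SEZ the cKO samples sat at the lower edge of the control range. The effect was -1.50 in OB and -0.41 in SEZ, with a difference of 1.09 (SE 0.28, 95% interval 0.49 to 1.69, adjusted p = 1.00). St8sia2 was at 7.59, 7.66 and 7.51 in OB cKO, 8.23, 8.26, 8.30, 8.66 and 8.65 in OB control, 8.82, 9.02 and 9.04 in SEZ cKO and 9.19, 8.95, 9.09, 9.37 and 9.11 in SEZ control samples. Again the OB groups did not overlap and the SEZ groups did, and the difference was 0.66 (SE 0.16, 95% interval 0.32 to 1.00, adjusted p = 1.00). Ncam1 itself, the main carrier of polysialic acid, had a difference of 0.06 (95% interval -0.14 to 0.27).

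**Figure D2:**
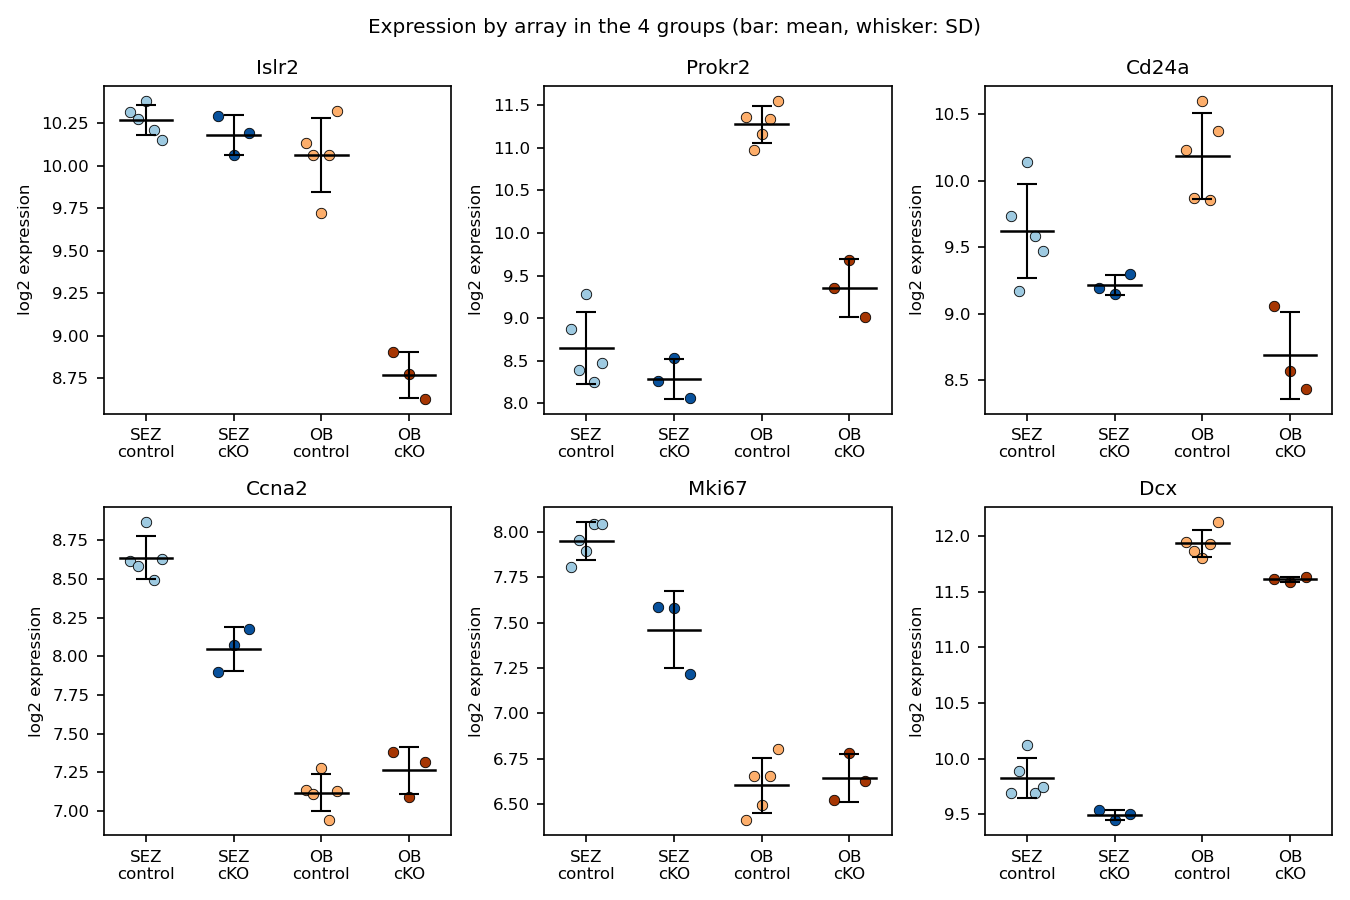
Log2 expression of 6 genes on each of the 16 arrays (points) by group, with the group mean (bar) and SD (whisker), n = 5 per control and 3 per cKO group. For Islr2, Prokr2 and Cd24a the OB cKO samples lie below all OB controls, for Ccna2 and Mki67 the SEZ cKO samples lie below all SEZ controls, and for Dcx both hold.

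The remaining genes that fell in OB had positive differences too. In all, 9 genes passed an adjusted p of 0.05 in OB, each lower in cKO (0.0451% of genes), and 0 passed in SEZ, where 492 had an unadjusted p under 0.05 (2.47%). They were Islr2, Prokr2, Cd24a, St8sia2, Nrep, Gng2, Sfrp2, Tubb2b and Ezh2. Leaving out the third cKO sample of OB left 2 of them (Islr2 and Prokr2). Leaving out control 4 or control 5 of OB, control 4 of SEZ or cKO 2 of SEZ left 5. All 9 differences were above 0, from 0.28 to 1.56, and since the OB effect that chose these genes enters the difference, this sign is no separate result. The SEZ arrays did not enter that choice except through the shared variance. Same-numbered SEZ and OB samples nevertheless deviated together at a correlation over 0.1 in 7 of 8 pairs. The SEZ signs may therefore not be independent of that choice, and they are given without a test. All 9 SEZ estimates were below 0, from -0.41 to -0.01, where 48% of all genes were, and the lowest unadjusted p in SEZ among them was 0.021.

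Nrep, a small neuronal protein linked to axon regrowth, was at 11.40, 11.59 and 11.10 in OB cKO and 12.05, 11.96, 12.10, 12.08 and 12.16 in OB control samples. Its SEZ values were 10.74, 10.96 and 11.05 in cKO and 10.87, 10.89, 11.23, 10.93 and 10.70 in control samples. The OB groups stood apart and the SEZ groups covered the same range, with a difference of 0.70 (SE 0.16, 95% interval 0.35 to 1.04, adjusted p = 1.00). Sfrp2, a secreted modulator of Wnt signalling, was at 7.72, 7.84 and 7.41 in OB cKO and 8.14, 8.67, 8.85, 9.12 and 9.16 in OB control samples. In SEZ it was at 7.25, 7.25 and 6.90 in cKO and 7.21, 7.23, 7.59, 7.11 and 7.30 in control samples. The OB controls spread over a full log2 unit and still lay above all OB cKO samples, and the difference was 0.98 (SE 0.26, 95% interval 0.42 to 1.54, adjusted p = 1.00). Gng2, a gamma subunit of heterotrimeric G proteins, was at 9.47, 9.60 and 9.31 in OB cKO and 10.33, 10.19, 10.15, 10.20 and 10.20 in OB control samples. Its SEZ values were 9.70, 9.22 and 9.36 in cKO and 9.58, 9.61, 9.77, 9.71 and 9.51 in control samples, which overlapped, and the difference was 0.55 (95% interval 0.25 to 0.84). For Tubb2b, a beta tubulin of young neurons, the difference was 0.40 (95% interval 0.11 to 0.69), and for Ezh2, the methyltransferase of Polycomb repressive complex 2, it was 0.28 (0.05 to 0.50).

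Of the 12 genes with the smallest p on the positive side, 5 had not passed in OB. Igfbpl1, a gene related to insulin-like growth factor binding proteins and present in young neurons, was at 7.99, 8.24 and 8.01 in OB cKO and 8.54, 8.85, 8.69, 9.08 and 9.45 in OB control samples. Its SEZ values were 7.81, 7.89 and 7.56 in cKO and 8.04, 7.93, 7.81, 7.59 and 7.72 in controls. The OB groups were apart and the SEZ groups overlapped, for a difference of 0.78 (95% interval 0.30 to 1.26). Crabp1, a retinoic acid binding protein, differed by 0.70 (0.26 to 1.15), and its highest OB cKO sample, 10.03, lay just under its lowest OB control, 10.04. Edaradd, an adaptor of the ectodysplasin receptor, differed by 0.62 (0.24 to 1.01). Swap70, a regulator of the actin skeleton, and Klk1b8, a kallikrein gene, differed by 0.40 and 0.41, with SEZ estimates above 0 (0.15 and 0.20). Klk1b8 lay at only 4.65 to 5.12 over all arrays, where array medians were 7.45 to 7.65. In all 12 the OB cKO samples lay below the OB controls with no overlap, which held for 314 of all genes (1.57%). The SEZ groups separated in 0 of the 12. Both tissues enter the difference that chose these genes, so these counts are no separate result.

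The neuroblast and young interneuron genes were lower in cKO in both tissues by sign, and by more in OB. Of 31 measured members, 27 had an OB estimate below 0 (52.1% of all genes) and 24 a SEZ estimate below 0 (48%). The median effect was -0.20 in OB and -0.11 in SEZ, and the median difference was 0.11, against 0.02 over all genes. It was 0.040 without OB cKO replicate 3, 0.063 without SEZ cKO replicate 1, 0.070 without SEZ control replicate 1 or 3, 0.067 without cKO replicate 1 in both tissues, 0.066 without cKO replicate 3 in both, and 0.13 with SEZ controls 2 and 4 out. Of the 31 members, 21 had a difference above 0, where 55% of all genes were. The difference had an unadjusted p under 0.05 in 10 positive members (0.973% of all genes) and in 1 negative member (0.512%), Dlx1, and 1 member passed over all genes, Islr2. OB cKO samples lay below OB controls without overlap in 12 members (1.57% of all genes), and SEZ cKO samples below SEZ controls in 3 (1.05% of all genes). The list was drawn up with earlier results of these arrays known, so these counts describe it and test nothing. Microglia genes, whose cells share the tissue, were also lower in OB by sign, in 19 of 23 members, with a median OB effect of -0.13, a median difference of 0.08 and list means of 8.29 to 8.54 in OB cKO and 8.43 to 8.63 in OB control samples. Their part in the neuroblast values was not tested.

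Within that list the surface genes had the largest median difference of the subgroups. The subgroups were drawn up with earlier results known, so this ranking tests nothing. The 8 surface proteins and enzymes of the surface coat had a median OB effect of -0.55, a median SEZ effect of -0.03 and a median difference of 0.47. Their mean per sample was 9.63, 9.72 and 9.37 in OB cKO and 10.28, 10.31, 10.24, 10.35 and 10.49 in OB control samples. In SEZ it was 9.91, 9.92 and 9.81 in cKO and 9.97, 9.89, 10.09, 10.02 and 9.99 in controls. The OB groups were far apart, and the SEZ cKO samples lay within or just under the SEZ control range. Members were uneven in OB. Their OB effects ran from -1.92 to -0.84 in Islr2, Prokr2, Cd24a and St8sia2. In Robo2, Plxna4, St8sia4 and Ncam1 they ran from -0.25 to -0.03, so the median lies between these sets. Besides the surface genes already described, Robo2, a receptor for Slit guidance cues, differed by 0.28, Plxna4, a semaphorin co-receptor, by 0.17 and St8sia4, the second polysialyltransferase, by 0.12, each with an interval that included 0.

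The 8 cytoskeletal genes had a median effect of -0.34 in OB and -0.11 in SEZ and a median difference of 0.19. Their mean per sample was lower in cKO without overlap in both tissues, at 11.04 to 11.21 against 11.41 to 11.63 in OB and 10.49 to 10.50 against 10.55 to 10.71 in SEZ. Dpysl3, a collapsin response mediator of growth cones, differed by 0.43 (adjusted p = 1.00) and its relative Dpysl5 by 0.27. Stmn1 and Stmn2, which destabilise microtubules, differed by 0.11 and 0.08, and the tubulin Tubb3 by -0.01. Dcx, the microtubule-binding protein used as the standard marker of neuroblasts, had nearly equal estimates in both tissues. It was at 11.61, 11.59 and 11.63 in OB cKO and 11.95, 11.87, 11.80, 11.93 and 12.12 in OB control samples. In SEZ it was at 9.54, 9.45 and 9.50 in cKO and 9.69, 9.89, 10.12, 9.69 and 9.74 in controls. No cKO sample reached a control in either tissue, at effects of -0.32 in OB and -0.33 in SEZ, neither of which passed over all genes. The difference was -0.01 (95% interval -0.29 to 0.27).

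The 9 transcription factors of the list split. Their median difference was -0.05. Sox11, a SoxC factor that drives neuronal genes, was at 8.82, 9.64 and 8.84 in OB cKO and 9.75, 9.94, 9.60, 10.20 and 10.43 in OB control samples. Its SEZ values were 9.68, 9.78 and 9.61 in cKO and 9.61, 10.02, 9.71, 9.77 and 9.997 in control samples. OB cKO replicate 2 reached into the OB control range and the SEZ groups overlapped, and the difference of 0.76 carried a wide interval (0.19 to 1.33, adjusted p = 1.00). Sox4, its close relative, differed by 0.37 (0.02 to 0.71). Dlx1, a homeodomain factor of interneurons, ran the other way, at 9.41, 9.32 and 9.11 in SEZ cKO and 10.04, 9.67, 10.31, 9.53 and 9.65 in SEZ control samples. In OB it was at 12.12, 12.12 and 11.97 in cKO and 12.21, 12.07, 12.20, 12.12 and 12.17 in controls. The SEZ groups did not overlap and the OB groups did, for a difference of -0.48 (-0.89 to -0.07, adjusted p = 1.00). Dlx2 differed by -0.21 (-0.68 to 0.25) and Sp8, a zinc finger factor of OB interneurons, by -0.20 (-0.57 to 0.17).

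The neurogenic network that this study reported, the factors Pax6, Sox11, Nfib and Pou3f4, was chosen by the study on these samples and is no independent evidence of a direction. All 4 estimates were below 0 in both tissues. The differences were 0.76 for Sox11, 0.28 for Pou3f4 (-0.09 to 0.65), 0.16 for Nfib (-0.08 to 0.40) and -0.11 for Pax6 (-0.47 to 0.25), and 0 of them passed over all genes. Without OB cKO replicate 3 the difference of Pou3f4 was 0.088. Nfib, a nuclear factor I protein, was at 10.84, 10.71 and 10.76 in OB cKO and 11.13, 11.05, 10.97, 11.09 and 11.11 in OB control samples, which did not overlap. In SEZ Nfib was at 10.66, 10.60 and 10.71 in cKO and 10.65, 10.86, 11.04, 10.75 and 10.72 in controls, with 2 of the 3 cKO samples inside the control range. Pax6 was at 10.04, 9.80 and 9.92 in OB cKO and 10.04, 9.83, 10.02, 9.88 and 9.92 in OB control samples, and SEZ values were 7.71, 7.97 and 8.39 in cKO and 8.30, 8.07, 8.27, 8.08 and 8.02 in controls. Its groups overlapped in both tissues. The median difference of the 4 genes, 0.22, was 0.12 without OB cKO replicate 3.

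**Figure D3:**
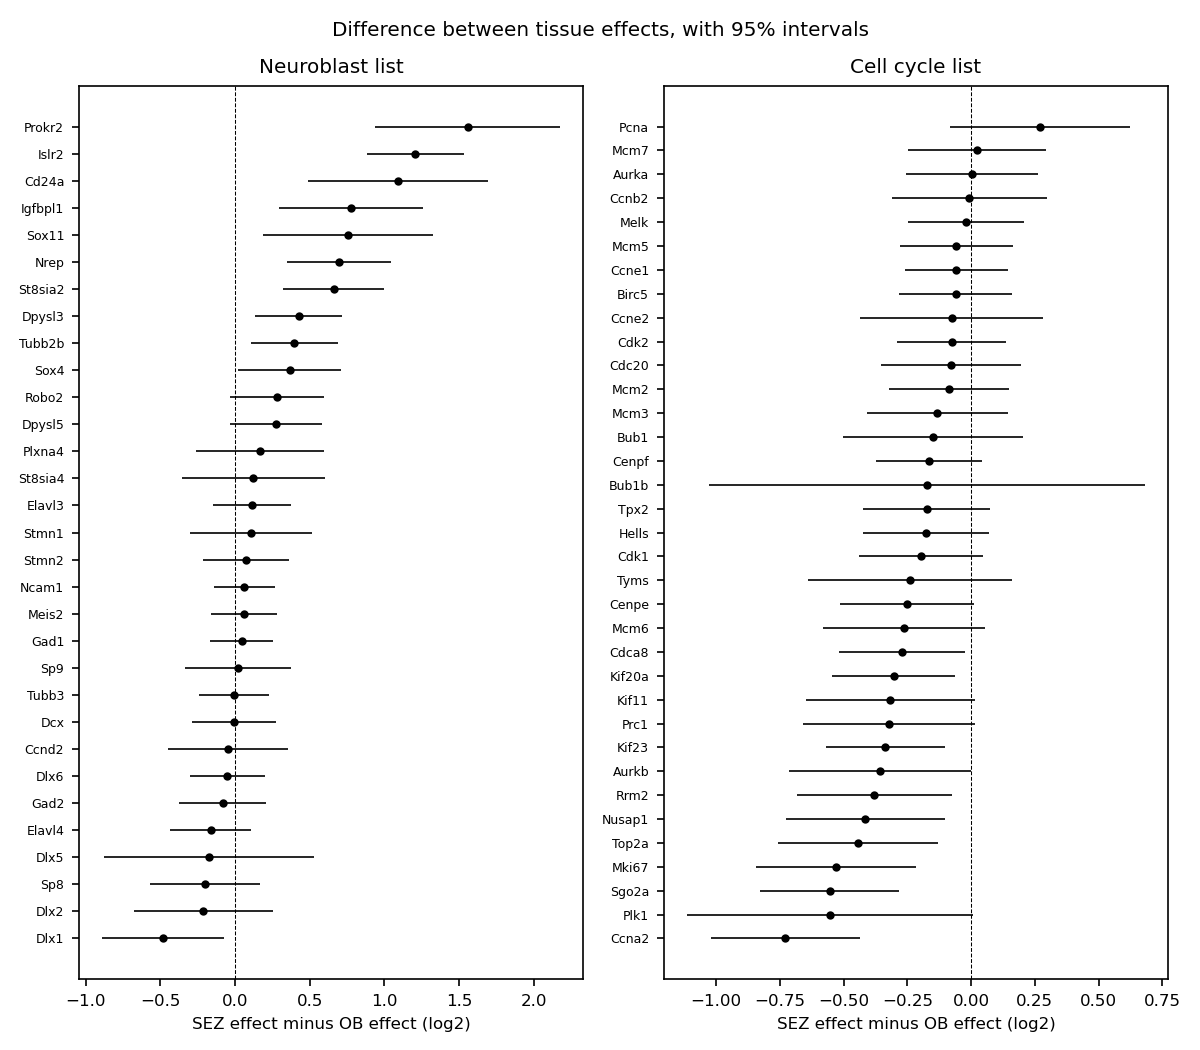
Difference between tissue effects (SEZ effect minus OB effect, log2) with its 95% interval for each of the 31 neuroblast genes (left) and 35 cell cycle genes (right), ordered by size. The interval lies wholly above 0 for 10 neuroblast genes and below 0 for Dlx1, and wholly below 0 for 10 cell cycle genes.

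Genes of cell division lay lower in cKO in the SEZ and near their control level in OB. Of 35 measured members of the cell cycle list, 34 had a SEZ estimate below 0 (48% of all genes) and 21 an OB estimate below 0 (52.1%). The median effect was -0.23 in SEZ and -0.02 in OB, and the median difference was -0.18. The difference was below 0 in 32 of 35, where 45% of all genes were, and 10 members had an unadjusted p under 0.05, each negative (0.512% of all genes). None of the 35 passed over all genes in the difference or in either tissue in limma. SEZ cKO samples lay below SEZ controls without overlap in 17 members (1.05% of all genes), and OB cKO samples below OB controls in 2 (1.57% of all genes). The list was drawn up with earlier results known. Its genes lay higher in SEZ than in OB controls in 32 of 35 members. The list mean was 7.44 to 7.56 in SEZ controls and 6.87 to 6.98 in OB controls, where array medians were 7.45 to 7.65. Whether the low level in OB hides a fall there was not tested. Among the 4 members above the median level of all genes the median difference was -0.02. The list's median was -0.20 without SEZ control replicates 2 and 4, and -0.21 without cKO replicate 3 in both tissues.

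Ccna2 had the smallest p of all genes with a negative difference. It encodes cyclin A2, the partner of cyclin-dependent kinases in DNA synthesis and entry into mitosis. In SEZ it was at 7.90, 8.07 and 8.18 in cKO and 8.62, 8.58, 8.87, 8.49 and 8.63 in control samples. In OB it was at 7.38, 7.09 and 7.32 in cKO and 7.13, 7.11, 7.28, 6.94 and 7.13 in controls. Every SEZ cKO sample lay below every SEZ control, and the OB groups overlapped at a lower level. The effect was -0.59 in SEZ and 0.14 in OB, for a difference of -0.73 (SE 0.14, 95% interval -1.02 to -0.44, adjusted p = 0.46) that did not pass over all genes.

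Sgo2a, which protects the cohesion of chromosomes, was at 6.88, 6.91 and 6.54 in SEZ cKO and 7.12, 7.37, 7.24, 7.42 and 7.20 in SEZ control samples. In OB it was at 6.50, 6.39 and 6.47 in cKO and 6.46, 6.43, 6.25, 6.44 and 6.37 in controls. SEZ cKO replicate 3 was the lowest, all 3 lay below the controls, and the difference was -0.56 (SE 0.13, 95% interval -0.83 to -0.28, adjusted p = 1.00). Mki67, the proliferation marker Ki-67 that coats mitotic chromosomes, was at 7.59, 7.58 and 7.22 in SEZ cKO and 7.80, 7.96, 7.90, 8.05 and 8.05 in SEZ control samples. Its OB values were 6.52, 6.78 and 6.62 in cKO and 6.41, 6.65, 6.49, 6.65 and 6.80 in controls. The SEZ groups were apart and the OB groups covered the same range, with a difference of -0.53 (SE 0.15, 95% interval -0.84 to -0.22, adjusted p = 1.00). Top2a, the topoisomerase that untangles replicated DNA, was at 7.02, 7.40 and 7.23 in SEZ cKO and 7.79, 7.67, 7.72, 7.55 and 7.85 in SEZ control samples, without overlap. In OB Top2a was at 6.19, 6.44 and 6.43 in cKO and 6.25, 6.51, 6.22, 6.55 and 6.50 in controls, with overlap, and the difference was -0.44 (-0.76 to -0.13). It was -0.10 when the gene's probe sets were averaged in place of taking the brightest.

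By role, the 20 genes of chromosome condensation, spindle and division had a median effect of -0.25 in SEZ and 0.00 in OB, with a median difference of -0.29. SEZ cKO samples lay below SEZ controls in 11 of the 20 (1.05% of all genes), and 8 had a negative difference at an unadjusted p under 0.05 (0.512% of all genes). Their mean per sample was 6.80, 6.89 and 6.79 in SEZ cKO and 7.15, 7.09, 7.18, 7.04 and 7.07 in SEZ control samples. In OB it was 6.45, 6.45 and 6.43 in cKO and 6.36, 6.45, 6.43, 6.51 and 6.48 in controls. The SEZ groups were apart, and the OB cKO samples sat inside the control range. Kif23 and Kif20a, motor proteins of the last step of division, differed by -0.34 and -0.30, and the spindle protein Nusap1 by -0.41. The 6 cyclins and kinases had a median difference of -0.08.

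The 9 genes of DNA replication and nucleotide supply had a median effect of -0.17 in SEZ and -0.03 in OB and a median difference of -0.13, and members disagreed. Rrm2, a subunit of ribonucleotide reductase, differed by -0.38 and Mcm6, a subunit of the replicative helicase, by -0.26. Mcm7, another helicase subunit, was at 8.05, 8.15 and 8.40 in SEZ cKO and 8.56, 8.44, 8.65, 8.44 and 8.46 in SEZ control samples. Its OB values were 8.14, 8.31 and 8.16 in cKO and 8.39, 8.47, 8.72, 8.57 and 8.53 in controls. No cKO sample reached a control in either tissue, and the difference was 0.02 (95% interval -0.25 to 0.29). The same held for Mcm5, whose difference was -0.06 (-0.28 to 0.16). Pcna, the sliding clamp of DNA polymerases, lay at 10.71 to 11.22 in OB cKO and 11.04 to 11.52 in OB control samples and had a positive difference, 0.27 (-0.08 to 0.62).

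**Figure D4:**
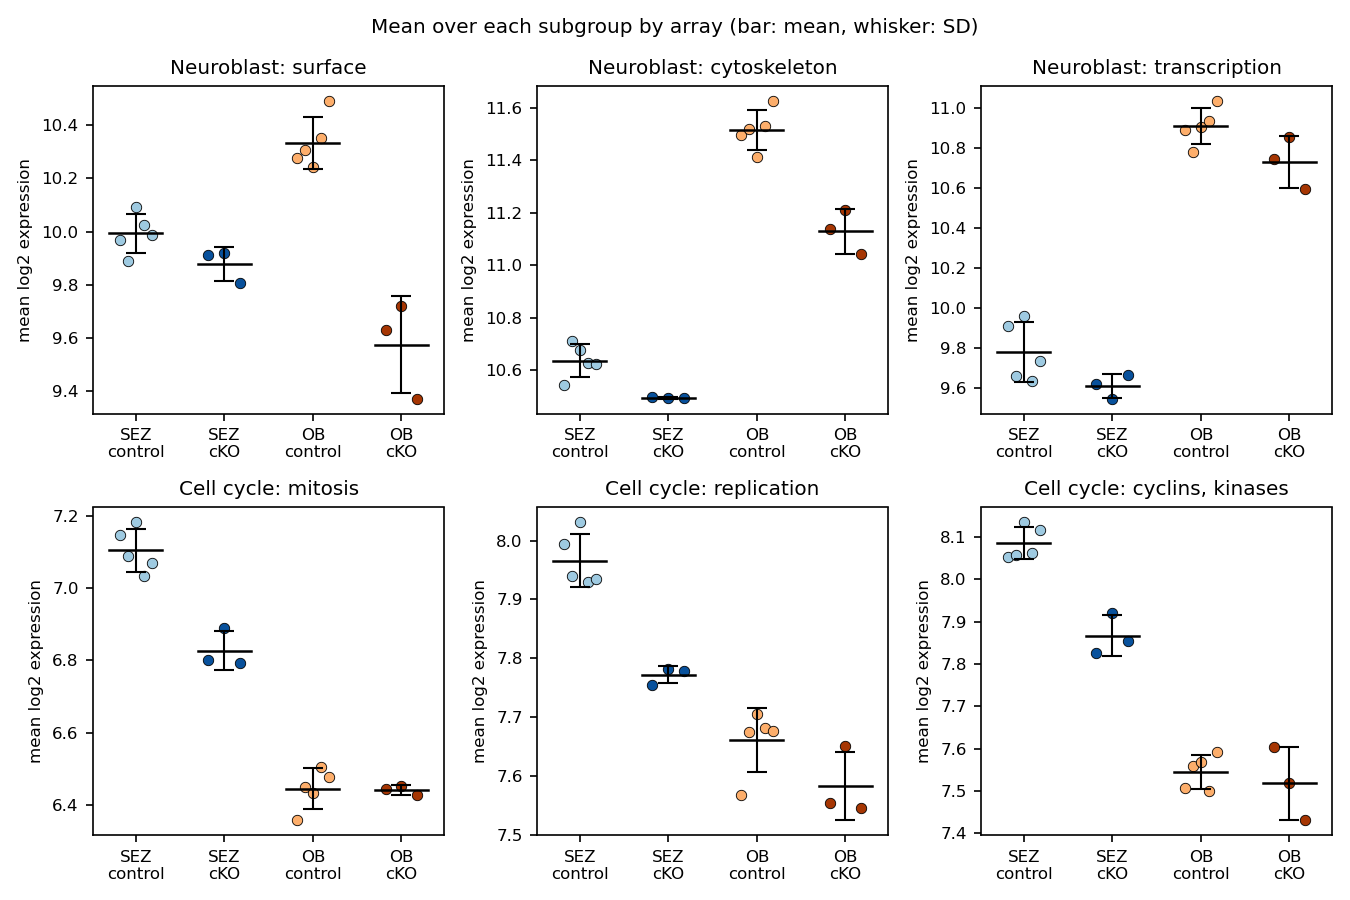
Mean log2 expression over the genes of 6 subgroups on each of the 16 arrays (points), with the group mean (bar) and SD (whisker), n = 5 per control and 3 per cKO group. The surface and cytoskeletal neuroblast genes separate OB cKO from OB control samples, the cytoskeletal genes also separate the SEZ groups (10.49 to 10.50 in cKO, 10.55 to 10.71 in controls), and the mitosis genes separate SEZ cKO (6.79 to 6.89) from SEZ control samples (7.04 to 7.18) with no separation in OB.

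Of the 12 genes with the smallest p on the negative side, 5 belonged to the cell cycle list, and another pair, Pclaf and Chek1, is known for roles in replication. Pclaf, which binds PCNA, was at 8.06, 8.08 and 7.98 in SEZ cKO and 8.45, 8.55, 8.66, 8.33 and 8.33 in SEZ control samples. Its OB values were 7.60, 7.40 and 7.66 in cKO and 7.68, 7.37, 7.52, 7.27 and 7.67 in controls, which overlapped where the SEZ groups did not, and the difference was -0.48 (-0.79 to -0.17). Chek1, a checkpoint kinase, differed by -0.32 (-0.55 to -0.10). The other 5 were Kcnrg, a potassium channel regulator (-0.40), Hpdl (-0.32), the zinc finger gene Zfp626 (-0.50), the olfactory receptor gene Olfr1410 (-0.33) and Sall3. In 9 of the 12 the SEZ cKO samples lay below the SEZ controls without overlap (1.05% of all genes). The SEZ values enter the difference that chose these genes, so this separation is no separate result.

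Sall3, a zinc finger factor of the spalt family, was the 1 gene of 19938 whose cKO samples lay above all controls in OB and below all controls in SEZ (0.00502%), and 0 genes showed the reverse. In SEZ it was at 7.83, 7.80 and 7.83 in cKO and 8.04, 7.97, 7.94, 7.96 and 8.04 in control samples. In OB it was at 9.21, 9.19 and 9.18 in cKO and 9.16, 8.83, 9.09, 9.004 and 9.10 in controls. The gaps were small in both tissues, with effects of -0.17 in SEZ and 0.15 in OB and a difference of -0.33 (SE 0.10, 95% interval -0.54 to -0.11, adjusted p = 1.00) that did not pass over all genes. Of all 19938 genes, 210 lay below all controls in SEZ (1.05%) and 191 above all controls in OB. Whether 1 gene in both sets is more than these counts would give was not tested.

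A shared direction without overlap was seen for few genes. The cKO samples lay below all controls in both tissues for 12 genes (0.0602%) and above them for 2, Ak7 and Jchain (0.01%). The 12 were Dcx, Mcm5, Mcm7, B3gnt5, Basp1, Kif21b, Tdrd3, Zfp846, Alg5, Faap24, Pdrg1 and Tmed2, named because they are all of that set. B3gnt5, a glycosyltransferase of glycolipid synthesis, had the largest estimates of the 12, -0.41 in SEZ and -0.53 in OB. Across all genes the SEZ and OB effects had a Pearson correlation of 0.20, over genes that share arrays and are no independent replicates.

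Most signalling lists had medians close to that of all genes. In the Wnt list, 26 of 36 members had a positive difference, where 55% of all genes did, and the median was 0.07. An unadjusted p under 0.05 was reached by 3 members, each positive (0.973% of all genes). These were Sfrp2, the ligand Wnt7a (0.39, 0.09 to 0.70) and the receptor Fzd2 (0.33, 0.04 to 0.63). Wnt7a was at 8.65, 8.80 and 8.29 in OB cKO and 8.93, 9.10, 8.95, 9.08 and 9.04 in OB control samples, which did not overlap. In SEZ Wnt7a was at 8.89, 8.55 and 8.65 in cKO and 8.80, 8.70, 8.82, 8.67 and 8.74 in controls, which did. The Notch, Hedgehog, BMP and EGF/FGF lists had median differences of 0.04, 0.03, 0.03 and 0.04. They held 0 members at an unadjusted p under 0.05 (1.48% of all genes). The 28 SWI/SNF subunits, among them Brg1 itself, had a median difference of 0.03, also with 0 such members, and the 11 Polycomb repressive complex 2 genes had 0.11 with 1 such member, Ezh2.

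**Figure D5:**
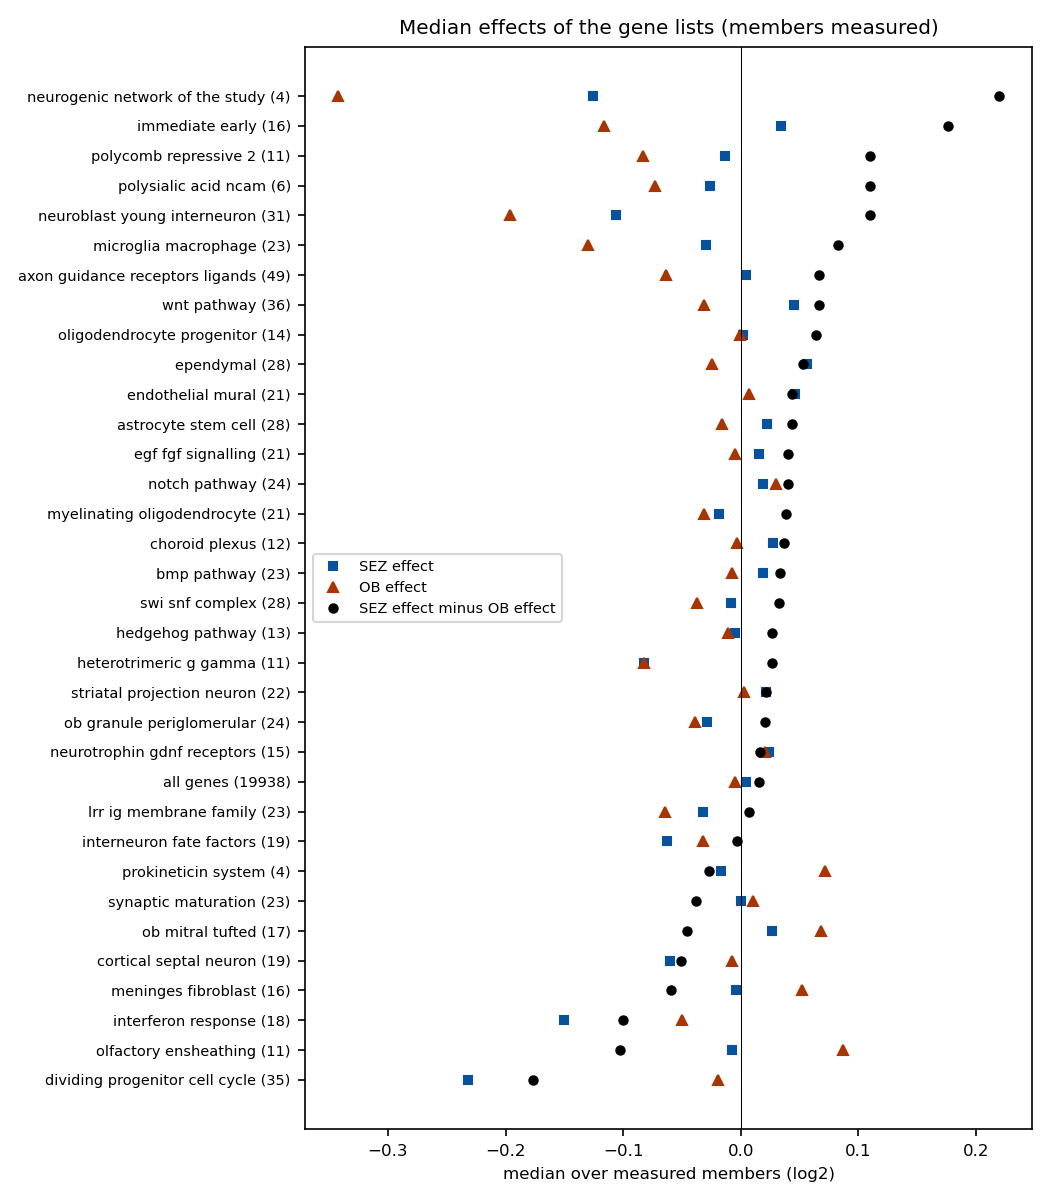
Median effect in SEZ (blue squares), in OB (brown triangles) and median difference (black circles) over the measured members of each gene list, on the log2 scale, with the number of members in brackets and all genes as a row of their own. The neurogenic network (0.22) and the cell cycle list (-0.18) are the highest and lowest of the lists drawn, which leave out the sex-linked genes and lists with fewer than 4 measured members, and the median over all genes is 0.02.

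Fate genes outside the neuronal line showed no difference that the intervals could tell from 0. Egfr, the receptor that marks activated stem cells and early progenitors, differed by 0.01 (-0.37 to 0.39). Olig2 and Sox10, factors of the oligodendrocyte line, differed by 0.03 (-0.34 to 0.40) and -0.10 (-0.58 to 0.39), and Pdgfra, the receptor of oligodendrocyte progenitors, by 0.17 (-0.49 to 0.83). Gfap, the intermediate filament of astrocytes and stem cells, differed by -0.19 (-0.79 to 0.42). The intervals of Sox10, Pdgfra and Gfap each reach past 0.5 log2 units on one side. A gap of that size between the tissues therefore lies within them.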

How the data were processed

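Total RNA, purified on columns and treated with DNase, was labelled with biotin, per the labels' protocols. The deposited values are log2 expression per probe set, made by the authors with RMA (background correction, quantile normalisation and summarising of probes) in Affymetrix Expression Console 1.2, per the submitters' processing notes. No source used here names the genome build of the probe sets, and their coordinates are therefore left out.

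Of 35556 probe sets, 21789 had 1 symbol in the platform annotation, 1621 several and 12146 none, and only the first kind was tested. The RefSeq table of GRCm38.p6 held 21698 of them and changed 0 symbols. For 999 genes with several probe sets the brightest was used. The 16 arrays were fitted together in limma 3.58.1 with R 4.3.3 (lmFit and eBayes, 4 group means, 12 residual and 4.34 prior degrees of freedom). Tests were two-sided, adjusted by Benjamini and Hochberg over 19938 genes, with a threshold of 0.05. P-values measure the spread between these samples, and the number of arrays limits the precision. No arrays were duplicates (highest correlation 0.995). The code was tested on simulated data.

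The members, gene lists, subgroups and rules were chosen with earlier results of these data known, so list counts and medians are given without tests. The rule named Smarca4, genes past the threshold in the difference or in a tissue, the 12 genes of smallest p in each direction, 13 fate genes, up to 4 members of each of 35 lists, and the 4 genes most like each gene that passed. Robo2, Plxna4, Dpysl3 and other members of the neuroblast and cell cycle lists, and the genes whose groups were apart in both tissues, were added after their values were seen. Promoter windows and motif matches came from the RefSeq promoter table of GRCm38.p6. Alternatives covered left-out arrays, scaling, filters, variance models, blocks, a covariate and probe set handling.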

Additional observations from a re-analysis of the deposited data

Results flagged for a closer look

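For Islr2 the difference of 1.21 passed limma's adjusted threshold. For Sall3, at -0.33, every SEZ cKO sample lay below every SEZ control and every OB cKO sample above every OB control, as in 1 of 19938 genes (0.00502%). Of all genes, 210 lay below all controls in SEZ and 191 above all controls in OB, and whether 1 in both exceeds these counts was not tested. The test of the Sall3 difference did not pass over all genes (limma, adjusted p = 1.00).

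Single samples stood apart from the others of their group in 10 of 124 groups of values looked at, by Dixon's criterion at the 95% level, where chance gives about 5%. Among named genes these were Gng2 in OB control replicate 1 (10.33, nearest 10.20), Klk1b8 in SEZ control replicate 3 (5.08, nearest 4.86) and Kcnrg in SEZ control replicate 3 (6.19, nearest 6.04). OB control replicate 1 also stood apart in 3 list means, being low for cell cycle genes (6.87, nearest 6.96) and immediate early genes (8.96, nearest 9.53) and high for interferon response genes (7.72, nearest 7.38). The remaining 4 list means were the astrocyte and stem cell genes in OB control replicate 2 (10.35, nearest 10.13), the family of leucine-rich repeat and immunoglobulin membrane proteins in OB control replicate 3 (9.54, nearest 9.57), the neurotrophin and GDNF receptors in OB control replicate 4 (8.73, nearest 8.63) and the synaptic genes in OB control replicate 5 (11.90, nearest 11.81).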

How the results depend on the processing

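The count of genes past the threshold in the difference between tissue effects was 0, 1 or 2 under every alternative tried. Leaving out single arrays gave 0 to 2 genes for that difference and 2 to 9 for the OB effect, a median difference of -0.23 to -0.15 for the cell cycle list, and 0.12 to 0.29 for the neurogenic network. Leaving out 1 number in both tissues gave 0 genes for the difference without cKO 1, 2 or 3 or control 1, 2 or 4, and for OB 5 genes without cKO 1, control 4 or control 5 and 2 without cKO 3. With SEZ control replicates 2 and 4 out, the difference called 0 genes and OB 5. Array weights called 2 genes in the difference, Islr2 and Prokr2. Testing all probe sets called 0 there, with an adjusted p of 0.0569 for Islr2 in limma. More features were tested, and the unadjusted p of Islr2 also changed, to 1.6e-06 from 5.9e-07 in the main limma fit. Cyclic loess gave 5 genes in OB, and centring each array on its median gave 1 gene in SEZ, Ccna2. The cell cycle median was -0.13 with arrays centred and -0.017 over the 4 members above the median level. The causes of these changes were not tested.

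Islr2 kept its direction in all 38 alternatives and lost the threshold in 14, with adjusted p from 0.000554 to 0.530. Of 1506 values of 40 named genes, 1436 kept direction and side of the threshold and 54 changed sign, all of them from estimates of genes whose interval included 0. With single arrays left out, the difference ranged from -0.045 to 0.031 for Smarca4, -0.056 to 0.064 for Dcx, -0.070 to 0.11 for Egfr, -0.065 to 0.14 for Olig2, -0.23 to 0.0032 for Sox10, -0.019 to 0.36 for Pdgfra and -0.29 to 0.049 for Pax6. Without cKO 1 in both tissues, with or without a block, it was 0.11 for Pax6, -0.087 for Egfr, -0.017 for Olig2, 0.069 for Sox10 and -0.10 for Pdgfra. Without cKO 2 in both it was 0.0072 for Smarca4 and 0.0047 for Dcx, and without cKO 3 it was 7e-04 for Dcx and -0.024 for Egfr. Dcx was at 0.025 without control 2 and 0.097 without control 3, Egfr at -0.032 without control 2 and -0.030 without control 5, and Smarca4 at 0.020 and Olig2 at -0.015 without control 3. Without SEZ control replicates 2 and 4, Olig2 was at -0.11 and Gfap at 0.012. Egfr was at -0.014 with cyclic loess and -0.038 with array weights. Smarca4 was at 0.033 and Dcx at 0.037 with arrays centred, and both were near 0 (0.0054 and 0.0076) with array weights. Dcx was at 0.021 with Y-linked genes as a covariate.

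Same-numbered SEZ and OB samples of 1 genotype deviated together at a correlation over 0.1 in 7 of 8 pairs, from -0.06 for cKO replicate 1 to 0.57, and 4 of 8 correlated best with their own number, so the numbers were not taken as pairs. With genotype and number as a replicate block the difference called 0 genes (Islr2 1.21, adjusted p = 0.126), and also 0 with cKO 1 left out (Islr2 adjusted p = 0.530). As a random block it called 1, Islr2. With the number alone as a block, SEZ called 2 genes and OB 5.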

Other observations

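Groups of genes not described above gave few differences between the tissue effects. Among 16 immediate early genes, which neurons switch on within minutes of activity, 13 had a positive difference (55% of all genes). Their median difference was 0.18, and 0 members had an unadjusted p under 0.05 (1.48% of all genes). Their list means were 9.45, 9.71 and 9.01 in OB cKO and 8.96, 9.74, 9.53, 9.69 and 9.70 in OB control samples, so the groups overlapped and varied widely. Ependymal genes, which build the motile cilia of the ventricle wall, had a positive difference in 20 of 28 (55% of all genes), with a median of 0.05. An unadjusted p under 0.05 was found in 1 of the 28 (1.48% of all genes), the dynein gene Dnah5 (0.26, 0.05 to 0.47). Olfactory ensheathing cell genes had a negative difference in 9 of 11 (median -0.10) and interferon response genes in 16 of 18 (median -0.10). Of all genes, 45% had a negative difference. Both lists had 0 members at an unadjusted p under 0.05.

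Among 19 cortical and septal neuron genes, 2 had an unadjusted p under 0.05, each with a negative difference (0.512% of all genes). Slc17a7 had the largest negative difference of that list, -1.47 (-2.80 to -0.13). Its SEZ cKO values were 8.04, 8.68 and 7.84, and SEZ control replicates 2 and 4, at 10.58 and 11.06, lay above the other 3 SEZ controls (8.44 to 8.98). The whole list followed these samples, with means of 8.30, 8.52, 8.25, 8.74 and 8.27 in SEZ controls, against 8.26 to 8.27 among the 3 SEZ cKO samples.

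The genes whose sample deviations from the 4 group means were most like those of Islr2 over the 16 arrays were Fam174b (Pearson r = 0.89), Ctdspl2 (0.89), Vmn1r201 (0.82) and Rbm41 (0.81). Their own differences were -0.15, -0.28, 0.11 and 0.10. They are the 4 highest correlations among all genes, and whether chance gives values this high was not tested. Vmn1r201 had a mean level of 4.30, where array medians were 7.45 to 7.65. Among the 13767 probe sets without a single gene symbol, 0 passed an adjusted p of 0.05 in limma, and 318 (2.31%) had an unadjusted p under 0.05.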
